A study of Mus musculus with 7 samples.

Results

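The 37 genes described here encode the machinery that makes secreted and membrane proteins in the endoplasmic reticulum (ER) and the unfolded protein response (UPR) that adjusts it. They were chosen by symbol, and all 37 had an entry in each matrix, among the 33710 genes with an entry in any of 7 matrices of single-cell mRNA counts. In the UPR, the sensors Ern1, Eif2ak3 and Atf6 respond to unfolded protein in the ER. Ern1 and Eif2ak3 act through the transcription factors Xbp1 and Atf4 in turn, while Atf6 itself binds target promoters. Ddit3 is a stress factor downstream of Atf4. The mammary epithelium secretes milk proteins in bulk, a task that draws on this machinery. By role, 6 members are sensors or transcription factors of the UPR and 10 are chaperones or chaperone partners. A further 4 are protein disulfide isomerases, 4 belong to ER-associated degradation (ERAD), 9 to targeting and translocation into the ER, and 4 to the signal peptidase.

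Mammary tumors of 7 control mice were profiled cell by cell with Drop-seq, which tags each captured transcript with a unique molecular identifier (UMI). The mice carried MMTV-PyMT, in which the MMTV promoter drives the polyoma middle T oncogene in mammary epithelium, and HK2 f/f, a hexokinase 2 allele that can be deleted by Cre. They carried no Cre, are given as wild type, and per the methods received tamoxifen on 7 days as the Cre mice did. Each of the 7 tumors gave 1 library (replicates 1, 2, 3, 4, 5, 7 and 8), labelled as taken 3 months after a tumor could be felt, while the methods place the sacrifice near the tumor endpoint. Titles put replicates 1 to 4 in a CB series and the others in a WT series, whose meaning is not given. HK2-deleted libraries were not analysed here.

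Of 37000 deposited barcodes, 15047 held 200 to 6000 genes and were kept as cells, 1133 to 4780 per tumor, with 962677 to 4471473 UMIs per tumor and medians of 527 to 694 UMIs per cell. No doublet caller was run, and 5 barcode sequences occurred in more than 1 tumor. Clusters were named from marker lists, and 8 classes were used, called tumor-like, hormone-sensing-like, myoepithelial-like, fibroblast-like, endothelial-like, macrophage-like, T/NK-like and B/plasma-like. A further cluster of 410 cells was named erythroid-like and left out, with 134 of its cells in replicate 1 and 149 in replicate 8. The oncogene transcript PYMT was among the 10 leading genes of that cluster. None of the 37 members was among the 587 variable genes that formed the clusters, though Xbp1 was among the 10 leading genes of 1 of 3 tumor-like clusters. PYMT, the oncogene transcript, averaged 2095 UMIs per 1000000 UMIs of its class (CPM) in tumor-like cells and 88.1 to 414 CPM in the hormone-sensing-like, fibroblast-like, macrophage-like and T/NK-like classes. In myoepithelial-like cells it was 1091 ± 1253 CPM (SD, n = 5). Levels below are CPM of a class in 1 mouse, so that each mouse counts once. They carry no length scaling, and levels of different genes were not ranked.

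UPR target genes are known for short promoter elements. The ER stress response element (ERSE, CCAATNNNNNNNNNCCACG) and ERSE-II (ATTGGNCCACG) are bound by Atf6 or Xbp1 together with NF-Y, and the UPR element (core TGACGTG) by Xbp1. In RefSeq promoters of build GRCm38.p6, 250 bases before to 50 after the start site, 30 of 37 members had an entry. Both strands were searched. ERSE was found in 7 of those 30 (23.3%) and in 39 of all 32851 promoters (0.119%). ERSE-II was found in 2 of 30 (6.67%) and in 12 of all (0.0365%). The UPR core was found in 1 of 30 (3.33%) and in 661 of all (2.01%). The ERSE promoters were those of Calr, Canx, Dnajc3, Hsp90b1, Hspa5, Pdia6 and Syvn1, and the ERSE-II promoters those of Dnajb11 and Herpud1. A match is a run of letters and not a measured binding site. Members were chosen from a pathway already known for these elements, so their higher shares are a description and not a test. Upstream bases of 6 of these genes are shown because all 6 were higher in the tumor-like cells with the most milk protein mRNA, described further on. Each stretch lies before the RefSeq start and outside the GENCODE gene body. For Hspa5, whose ERSE lies inside the longer GENCODE model, 30 bases around it are given. Capitals mark ERSE or ERSE-II.

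Hspa5 (chr2:34772020-34772049, plus strand): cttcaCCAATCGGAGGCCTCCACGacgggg

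Hsp90b1 (chr10:86705510-86705694, minus strand): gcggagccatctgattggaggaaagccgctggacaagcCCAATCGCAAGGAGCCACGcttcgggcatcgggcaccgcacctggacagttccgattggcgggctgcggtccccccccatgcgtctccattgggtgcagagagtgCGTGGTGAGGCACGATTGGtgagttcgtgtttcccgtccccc

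Dnajc3 (chr14:118937682-118937931, plus strand): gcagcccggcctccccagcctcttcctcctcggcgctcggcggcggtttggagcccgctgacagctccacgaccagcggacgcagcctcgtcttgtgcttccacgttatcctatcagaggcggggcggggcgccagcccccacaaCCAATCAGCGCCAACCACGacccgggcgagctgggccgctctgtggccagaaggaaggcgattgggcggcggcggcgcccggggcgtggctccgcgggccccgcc

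Pdia6 (chr12:17266339-17266544, plus strand): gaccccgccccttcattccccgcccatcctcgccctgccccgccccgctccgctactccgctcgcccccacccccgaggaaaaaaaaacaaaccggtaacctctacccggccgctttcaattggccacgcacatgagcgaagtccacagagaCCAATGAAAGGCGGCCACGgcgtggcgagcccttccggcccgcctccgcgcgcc

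Calr (chr8:84846935-84847181, minus strand): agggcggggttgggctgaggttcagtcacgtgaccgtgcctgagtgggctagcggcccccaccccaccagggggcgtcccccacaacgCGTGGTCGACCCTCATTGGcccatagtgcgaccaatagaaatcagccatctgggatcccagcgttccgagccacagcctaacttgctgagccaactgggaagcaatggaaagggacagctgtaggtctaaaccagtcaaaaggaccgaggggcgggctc

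Herpud1 (chr8:94386179-94386428, plus strand): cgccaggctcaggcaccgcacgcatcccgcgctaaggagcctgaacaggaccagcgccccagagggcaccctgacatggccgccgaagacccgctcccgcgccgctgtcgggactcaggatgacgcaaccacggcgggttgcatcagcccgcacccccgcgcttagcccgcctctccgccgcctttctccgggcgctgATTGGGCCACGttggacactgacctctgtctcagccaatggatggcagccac

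Hspa5 encodes BiP, the main Hsp70 chaperone of the ER. Its ERSE began at base -65 from the start site, with a UPR core at -157. Hsp90b1 encodes the ER Hsp90 chaperone, and its promoter held ERSE at -212 and, on the other strand, at -107. Dnajc3, a BiP cochaperone, had it at -105 and Pdia6, a disulfide isomerase, at -98. In Calr, which encodes the calcium-binding lectin chaperone calreticulin, the match lay on the opposite strand at -162. Herpud1, a membrane scaffold of ERAD, held ERSE-II at -52.

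Xbp1, the transcription factor made by Ern1-dependent splicing, was called lower in each of the 7 other classes than in tumor-like cells. It was the one member called in all of them, of 28 members tested in all. Of all genes 8.82 to 28.1% were called lower in each comparison. How many genes were lower in all 7 was not counted. The 7 comparisons share their tumor-like cells, so their calls are not independent. Xbp1 in tumor-like cells was 1011, 573, 679.5, 891, 774, 823 and 419 CPM in replicates 1, 2, 3, 4, 5, 7 and 8, a mean of 739 ± 199.6 CPM (SD, n = 7). In hormone-sensing-like cells it was 192, 141, 151, 226, 159, 253 and 216 CPM. The lowest tumor-like value lay above the highest hormone-sensing-like value, and the same held against myoepithelial-like, fibroblast-like, endothelial-like, macrophage-like and T/NK-like cells. In B/plasma-like cells of replicates 1, 2, 4 and 5 it was 243, 59.99, 186 and 474 CPM. This range reached above the tumor-like value of replicate 8 alone, which had too few B/plasma-like cells to be compared. Tumor-like values of the same 4 mice were higher, at 573 to 1011 CPM. Counts of 3' ends do not tell spliced from unspliced Xbp1.

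Each class was compared with tumor-like cells of the same mice by edgeR's quasi-likelihood test on summed UMIs, blocked by mouse, with p adjusted by Benjamini-Hochberg across every gene tested. Fits used TMM scaling, so a log2 difference can depart from the ratio of CPM levels. Differences are log2 of the class over tumor-like cells. Xbp1 was lower by this test in all 7 classes. Against hormone-sensing-like cells the difference was -2.12 ± 0.14 (SE), adjusted p = 2.79e-15. It was -2.52 ± 0.23 (SE), adjusted p = 4.69e-27, in T/NK-like cells and -1.12 ± 0.33 (SE), adjusted p = 0.0064, in endothelial-like cells, the classes at either end of the range. Of 11 dissociation-response genes, 1 to 10 were called in each of the 7 comparisons, and their part was not tested. In all 7 comparisons Xbp1 was higher in tumor-like cells of every mouse. Barcodes under 200 genes, which hold mostly RNA outside kept cells, had 305 ± 113 CPM of Xbp1, so that a level near it in other classes cannot be told apart from free RNA.

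**Figure D1:**
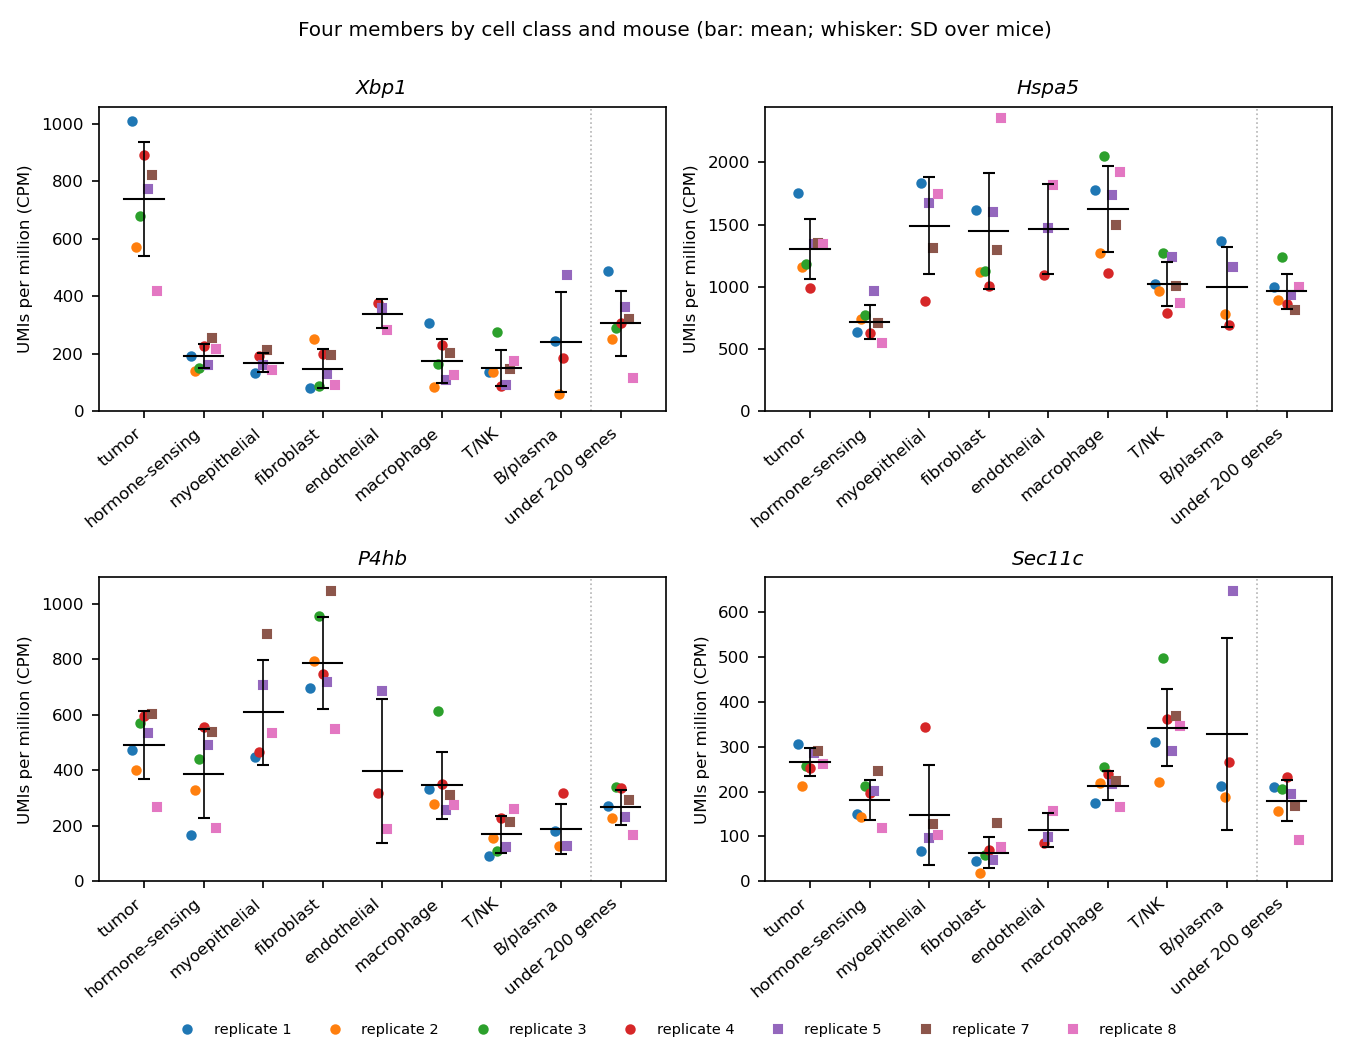
Levels of Xbp1, Hspa5, P4hb and Sec11c in CPM (vertical axes, from 0) in the 8 classes and in barcodes under 200 genes (horizontal axis). Points are mice and bars the mean with SD. The tumor-like values of Xbp1, 419 to 1011 CPM, lie above all points of hormone-sensing-like cells, and Sec11c has its lowest mean in fibroblast-like cells.

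Summed by role, the chaperones came to 4552 ± 636 CPM in tumor-like cells (n = 7), 6208 ± 1771 CPM in fibroblast-like and 3523 ± 535 CPM in hormone-sensing-like cells. The disulfide isomerases, which form and rearrange disulfide bonds, came to 1389 ± 209 CPM, 2182 ± 303 CPM and 1200.2 ± 197 CPM in the same order, and to 703 ± 129 CPM in T/NK-like cells. Fibroblast-like cells thus held the highest sums of both groups among these classes. The signal peptidase, which removes signal sequences, came to 1061 ± 141 CPM in tumor-like and 621 ± 103 CPM in fibroblast-like cells. The ERAD genes came to 194 ± 30.6 CPM in tumor-like and 314 ± 64.8 CPM in macrophage-like cells. These sums are descriptions and were not tested. In mm10, Xbp1 lies at chr11:5520659-5525893, + strand, and Hspa5 at chr2:34771970-34777547, + strand. Exons of Ddit3 overlap Mars on the opposite strand, those of Spcs1 overlap Glt8d1, and those of Manf overlap Rbm15b on the same strand. Other members overlap too, among them Hsp90b1 with Gm15344 and Gm25745 on the same strand. On the opposite strand Pdia3 overlaps Catsper2, Pdia6 overlaps Atp6v1c2 and Syvn1 overlaps Mrpl49. Whether counting used strand is not given in the sources used here, so reads of these pairs may be shared.

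Hormone-sensing-like cells, the other luminal class, gave a smaller share of their UMIs to most of the machinery than tumor-like cells. Their medians per mouse were 623.5 to 1666 UMIs per cell, against 589 to 1024.5 in tumor-like cells. Amounts per cell were not compared. Of 35 members tested, 20 were lower and 2 higher, or 22 called. Of all 9440 genes 28.7% were called, 16.3% lower and 12.4% higher. The median log2 difference was -0.48 over the members and -0.08 over all genes tested. The lower members were 3 of 4 sensors tested, 5 of 10 chaperones, 2 of 4 disulfide isomerases, 1 of 4 ERAD genes, 8 of 9 translocation genes and 1 of 4 signal peptidase genes. Without normalization beyond library size, 15 were lower, as were 1206 of all 9440 genes. Pdia6, Herpud1, Srp9, Sec61g and Ssr4 were no longer called. The 4 CB series mice alone gave 18 calls of 36 and the 3 WT series mice 5 of 31. Of all genes 24.8% and 13.2% were called in these fits.

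Among the transcription factors, Atf4, which drives amino acid and redox genes under stress, was 286 ± 85.05 against 507 ± 144 CPM (-0.94 ± 0.13 (SE), adjusted p = 1.92e-07). Ddit3 was 21.6 ± 6.48 against 49.3 ± 9.75 CPM (-1.38 ± 0.24 (SE), adjusted p = 2.02e-05). Both were lower in all 7 mice. Atf6 did not pass (0.21 ± 0.26). Hspa5 ranged from 994 to 1753 CPM with a median of 1342 CPM in tumor-like cells and ranged from 551 to 968 CPM with a median of 708 CPM in hormone-sensing-like cells. The groups did not overlap, and the difference was -0.96 ± 0.13 (SE), adjusted p = 3.22e-07. Dnajb9, a BiP cochaperone induced by Xbp1, was 29.1 ± 12.8 against 77.7 ± 25.8 CPM (-1.52 ± 0.20 (SE), adjusted p = 1.20e-07). Manf, a secreted ER stress factor that binds BiP, was 179.5 ± 32.9 against 270.4 ± 37.7 CPM (-0.71 ± 0.14 (SE), adjusted p = 7.45e-05). These chaperones were lower in all 7 mice. Barcodes under 200 genes held 27.6 to 100.4 CPM of Ddit3 and 963 ± 139.5 CPM of Hspa5. The part of free RNA in these differences was not tested.

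In the translocation group, Ssr1 and Ssr2, subunits of the translocon-associated protein complex, differed by -1.13 ± 0.19 and -0.80 ± 0.14 (adjusted p = 5.77e-06 and 1.24e-05, edgeR). Sec61a1 and Sec61b, subunits of the protein-conducting channel, differed by -0.71 ± 0.18 and -0.70 ± 0.13 (adjusted p = 0.00219 and 6.72e-05). Sec61b has near-identical gene copies at its 3' end, so its counts are uncertain. Dnajc3 and Srp14 went the other way. Dnajc3 was 375 ± 123 against 209 ± 68.3 CPM, higher in hormone-sensing-like cells of all 7 mice (0.78 ± 0.14 (SE), adjusted p = 2.93e-05). Srp14, an RNA-binding subunit of the signal recognition particle, was 254 ± 33.6 against 176 ± 16.7 CPM, also in 7 of 7 mice (0.40 ± 0.13 (SE), adjusted p = 0.0203). Srp9, its partner, was lower (-0.41 ± 0.14 (SE), adjusted p = 0.0254).

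**Figure D2:**
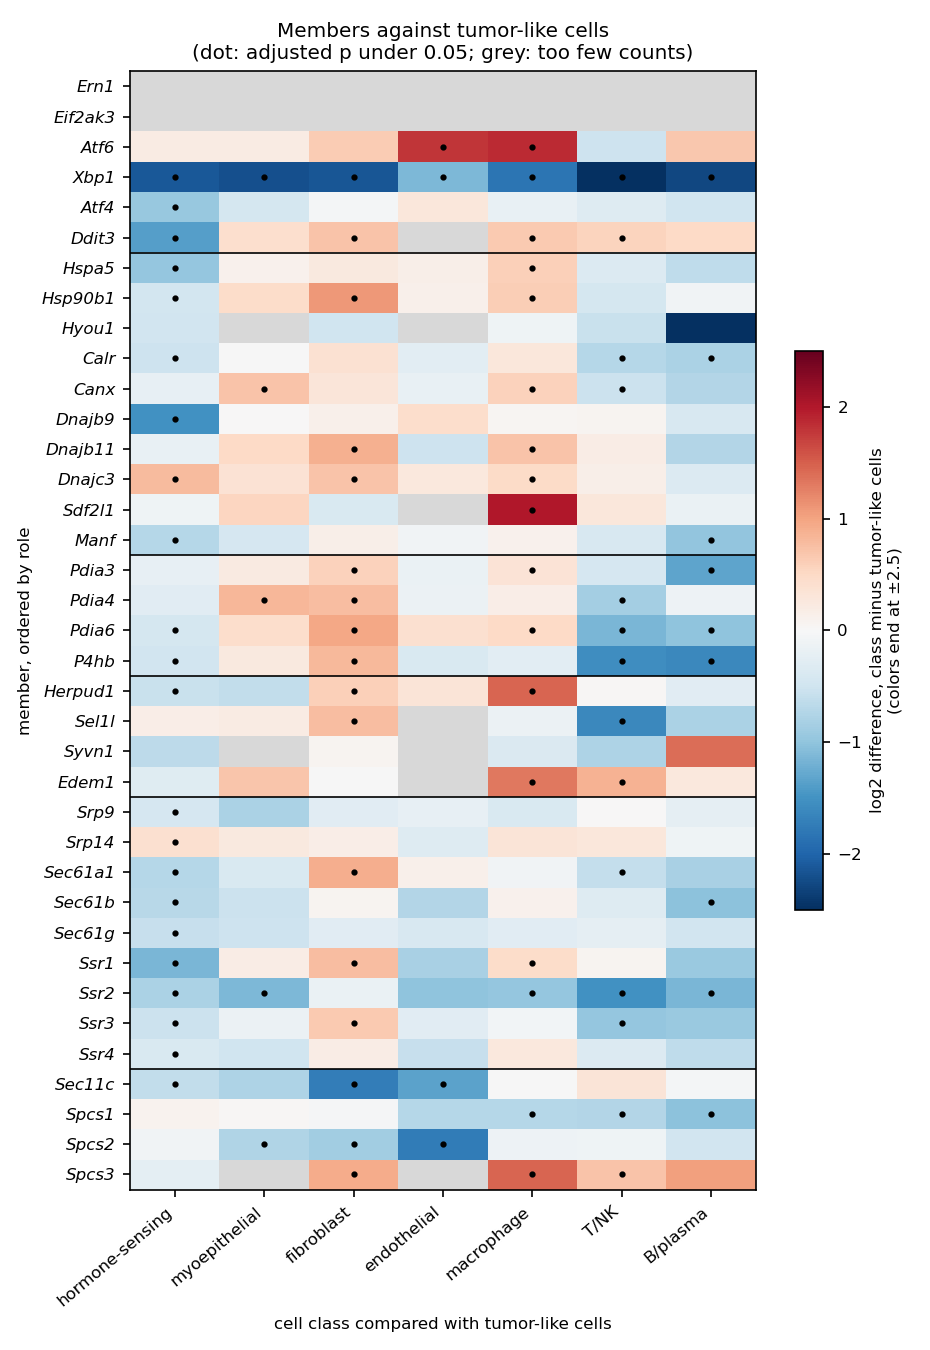
Heat map of the log2 difference of each class from tumor-like cells (columns) for the 37 members (by role). Colors end at ±2.5, dots mark an adjusted p under 0.05 and grey marks members with too few counts. Xbp1 is lower in all 7 columns, while fibroblast-like cells are higher in all 4 disulfide isomerases.

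Fibroblast-like cells, which secrete extracellular matrix, were higher than tumor-like cells in all 4 disulfide isomerases and lower in 2 of 4 signal peptidase genes. Of 35 members tested, 14 were higher and 3 lower, or 17 called. Of all genes 40.2% were called, 19.6% higher and 20.6% lower, so that members were called higher more often than all genes and lower less often, by counts with no test. Their median was 0.25, against -0.13 over all genes. P4hb, which is also a subunit of the collagen prolyl hydroxylase, was 787 ± 167 against 493 ± 122 CPM and higher in 7 of 7 mice (0.81 ± 0.18 (SE), adjusted p = 0.00044). Pdia3, Pdia4 and Pdia6 differed by 0.58 ± 0.19, 0.77 ± 0.20 and 0.96 ± 0.20 (adjusted p = 0.017, 0.0027 and 0.000247).

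Hsp90b1 was 2220.0 ± 745 against 1116 ± 181 CPM, without overlap between the classes (1.08 ± 0.21 (SE), adjusted p = 5.35e-05). Dnajb11, a BiP cochaperone, and Dnajc3 were also higher (0.90 ± 0.23 and 0.72 ± 0.21), as was Sec61a1 (0.90 ± 0.20). Sec11c, a catalytic subunit of the signal peptidase, ranged from 18.1 to 129.8 CPM with a median of 57.96 CPM in fibroblast-like cells. In tumor-like cells it ranged from 213 to 305 CPM with a median of 262 CPM. The classes did not overlap and the difference was -1.74 ± 0.24 (SE), adjusted p = 1.53e-07. Spcs2, an accessory subunit, was lower (-0.87 ± 0.19 (SE), adjusted p = 0.000343), while Spcs3 was higher (0.93 ± 0.33 (SE), adjusted p = 0.0225). With library size alone 10 members stayed higher and 3 lower, where 1202 of all genes were higher and 1990 lower. In total 13 of 35 members and 46.2% of all genes were called in that fit. Ddit3, Herpud1, Sel1l and Spcs3 were no longer called. Scaling moved the median of all genes from -0.13 to -0.30. The CB series alone gave 6 calls of 35, the WT series 10 of 35, and without replicate 8 there were 11 of 35. Of all genes 26.3%, 27% and 35.9% were called in these fits. The share of members was thus below that of all genes in the CB series and without replicate 8. Without a filter on low counts there were 5 of 37, with 11 members at an unadjusted p under 0.05. Of all genes 17.2% were called in that fit, a higher share than of the members.

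Macrophage-like cells were higher in the chaperone partner Sdf2l1, the ERAD genes Herpud1 and Edem1, and the sensor Atf6. Of 35 members, 14 were higher and 3 lower, or 17 called. Of all genes 46.9% were called, 22.6% higher and 24.3% lower, so that the members' calls leaned to the higher side, by counts with no test, with a median of 0.16 against -0.09. Sdf2l1, a component of the BiP complex, ranged from 67.5 to 165 CPM with a median of 92.7 CPM in macrophage-like and ranged from 6.55 to 58.8 CPM with a median of 29.7 CPM in tumor-like cells. Those values did not overlap (1.99 ± 0.22 (SE), adjusted p = 4.57e-09). Herpud1 was 187 ± 64.3 against 84.9 ± 14.6 CPM (1.46 ± 0.17 (SE), adjusted p = 1.62e-08), and Edem1, which passes misfolded glycoproteins to ERAD, was 75.3 ± 19.6 against 39.7 ± 8.199 CPM (1.33 ± 0.21 (SE), adjusted p = 2.52e-06). Atf6 was 90.2 ± 35.1 against 31.6 ± 8.901 CPM (1.86 ± 0.21 (SE), adjusted p = 8.43e-09). Lower were Xbp1, Ssr2 (-0.97 ± 0.15 (SE), adjusted p = 3.07e-06) and Spcs1 (-0.72 ± 0.15 (SE), adjusted p = 0.000179).

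The split for macrophage-like cells depended on scaling. With library size alone 6 members were higher and 10 lower, where 1542 of all genes were higher and 3387 lower. The median of all genes moved from -0.09 to -0.39. The 6 that were higher under each of 3 scalings were Atf6, Dnajb11, Sdf2l1, Herpud1, Edem1 and Spcs3. Hspa5 (0.59 ± 0.15), Hsp90b1 (0.61 ± 0.16) and Canx, a membrane lectin chaperone (0.57 ± 0.14), were among those lost. The CB series alone gave 9 calls of 36 and the WT series 12 of 34. Of all genes 35.04% and 35.9% were called in these fits, and the share of members was not above that in either. Of 11 dissociation-response genes, 7 were lower and 1 higher in this comparison, and their part in the result was not tested.

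T/NK-like cells were lower than tumor-like cells in 3 of 4 disulfide isomerases. Of 35 members, 3 were higher and 11 lower, or 14 called. Of all genes 50.6% were called, 22.6% higher and 28.1% lower, so that members were called higher less often than all genes and lower about as often, by counts with no test, with a median of -0.35 against -0.07. P4hb was 169 ± 65.3 against 493 ± 122 CPM and lower in 7 of 7 mice (-1.56 ± 0.21 (SE), adjusted p = 1.12e-12). Its values, 91.96 to 259.9 CPM, did not overlap those of tumor-like cells. Pdia6 and Pdia4 differed by -1.15 ± 0.20 and -0.85 ± 0.21 (adjusted p = 5.81e-08 and 0.000154). Sel1l, the adaptor of the ERAD ubiquitin ligase, was 9.96 ± 10.8 against 45.7 ± 13.6 CPM (-1.61 ± 0.35 (SE), adjusted p = 2.22e-05), and Ssr2 differed by -1.50 ± 0.21 (SE), adjusted p = 3.24e-12. Edem1 was higher (0.87 ± 0.26 (SE), adjusted p = 0.00227). It was the one member called higher under each of 3 scalings, and all 11 lower calls were kept under them. With DESeq2's size factors 1 was higher and 21 lower, where 1137 of all genes were higher and 2751 lower, with an all-gene median of -0.34. With library size alone 1 was higher and 15 lower, where 1443 of all genes were higher and 2193 lower. How many of all genes kept their call under each scaling was not counted. The CB series alone gave 8 calls and the WT series 5. Of all genes 33.7% and 25.1% were called in these fits. Sec11c was 342 ± 85.3 against 266 ± 30.7 CPM, higher in 7 of 7 mice without passing (0.32 ± 0.18 (SE), adjusted p = 0.141).

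B/plasma-like cells were compared in 4 mice. Of 35 members 9 were lower and 0 higher, while of all genes 20.2% were called, 14.1% lower and 6.12% higher, with medians of -0.63 and -0.48. An unadjusted p under 0.05 was reached by 14 of 35 members and by 2677 of all 8344 genes. P4hb was 189.7 ± 89.5 against 501 ± 82.7 CPM (-1.60 ± 0.36 (SE), adjusted p = 0.000116), Pdia3 196 ± 89.6 against 419.8 ± 72.97 CPM (-1.32 ± 0.36 (SE), adjusted p = 0.00235) and Pdia6 167 ± 12.8 against 307 ± 63.7 CPM (-1.0 ± 0.37 (SE), adjusted p = 0.0349). All were lower in 4 of 4 mice. The other lower members were Xbp1, Calr, Manf, Sec61b, Ssr2 and Spcs1, and Manf was not called under every scaling. Both other scalings called 1 member higher, Syvn1. The CB series alone gave 10 calls, with 17.6% of all genes called. The share of all genes in the same fit is given in parentheses for the next counts. DESeq2 gave 5 (13.3%), classes from the markers of each cell 5 (11.7%) and clusters from 9 components 3 (14.15%). The calls numbered 3 without replicate 1 (14.4%) and 2 without replicate 4 (12.4%).

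The 475 cells of this class held few plasma cells, the cells that secrete antibody. Only 13 carried at least 3 UMIs of plasma genes, a choice that favors deep cells, and their 21236 UMIs were pooled over mice (200629 in the other 462), so no test was made. Xbp1 stood at 1130 CPM in those 13 (exact 95% Poisson interval 724 to 1682, counting error only) and at 115 CPM in the other 462 (72.7 to 172). Hsp90b1 was 5133 CPM (4215 to 6192) against 773 (656 to 904), and Sec11c 1413 (953 to 2017) against 194 (138 to 266). No member was among the genes that chose these cells. Hspa5 was 1601 CPM (1109 to 2237) against 852 (729 to 990.1). These cells were spread unevenly over mice. Replicates 5 and 7 gave 2 and 4 of the 13 cells, with 556 and 449 plasma gene UMIs, and 9 and 12 of the 24 Xbp1 UMIs, while replicates 1, 2 and 4 gave 6 cells with 4 to 30 plasma gene UMIs per mouse. Replicate 8 gave the remaining cell, with 177 plasma gene UMIs and 2 Xbp1 UMIs. The pooled levels thus rest mainly on 2 mice, and the intervals do not cover the spread between mice. Among the 4 mice of the comparison with tumor-like cells, plasma genes summed to 24110 CPM of the class in replicate 5 and 223 to 929 CPM in the others, and replicate 5 also had the highest Xbp1 level of the class. Its 2 cells chosen by plasma genes held 6822 of the 23227 UMIs of the class in that mouse, and 9 Xbp1 UMIs. The part of plasma cells in that Xbp1 level was not tested.

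Endothelial-like and myoepithelial-like cells gave fewer tests and calls. In 3 mice with enough endothelial-like cells, 4 of 28 members were called, 1 higher and 3 lower. Of all genes 20.4% were called, 11.4% higher and 8.94% lower. In both classes the share of members called in total was below that of all genes, by counts with no test. The share called lower was slightly above that of all genes in both. Atf6 was 145 ± 38.4 against 38.5 ± 8.46 CPM (1.79 ± 0.61 (SE), adjusted p = 0.0245), while Xbp1, Spcs2 (-1.75 ± 0.42 (SE), adjusted p = 0.000687) and Sec11c (-1.34 ± 0.46 (SE), adjusted p = 0.0264) were lower. Without replicate 4 there were 0 calls by edgeR, with 5 members at an unadjusted p under 0.05, and 6.98% of all genes were called. DESeq2 gave 1 call (13.2% of all genes) and a limit of 500 genes per cell 2 (17.4%). In 5 mice with myoepithelial-like cells, 5 of 32 were called, 2 higher and 3 lower. Of all genes 18% were called, 9.21% higher and 8.82% lower. Pdia4 was 325 ± 85.4 against 187 ± 51.8 CPM (0.83 ± 0.27 (SE), adjusted p = 0.0271) and Canx 793 ± 349 against 472 ± 102 CPM (0.72 ± 0.23 (SE), adjusted p = 0.0233), each higher in 5 of 5 mice. With classes called from the markers of each cell, the difference of Pdia4 was -0.111. No filter on low counts gave 8 calls (6.22% of all genes) and DESeq2 2 (14.25%). Without replicate 1 there was 1 call (14.7%) and without replicate 4 there were 2 (11.9%). Xbp1, Ssr2 (-1.12 ± 0.29 (SE), adjusted p = 0.00522) and Spcs2 (-0.75 ± 0.24 (SE), adjusted p = 0.0244) were lower.

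Ern1 and Eif2ak3, the kinases that sense ER stress, were too sparse for any of the 8 comparisons, with 3.29 ± 1.87 CPM and 7.35 ± 5.19 CPM in tumor-like cells. Hyou1, an Hsp70-like ER chaperone, and Syvn1, the ubiquitin ligase of ERAD, were tested in 6 of the 8 comparisons, not in endothelial-like or myoepithelial-like cells, and were called in none of them with TMM scaling. Syvn1 was 73.9 ± 27.7 against 26.6 ± 4.796 CPM in B/plasma-like against tumor-like cells (adjusted p = 0.057), and was called higher there with DESeq2's size factors and with library size alone. In T/NK-like cells Syvn1 and Hyou1 were both called lower with DESeq2's size factors.

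The relation to milk protein load was examined within tumor-like cells. Cells of each mouse were ranked by the share of their UMIs from 8 milk genes and cut into 3 groups of equal size. Csn3, kappa-casein, made up 88.4% of these UMIs and Lalba, alpha-lactalbumin, 5.47%. The share was 0.0677 to 1.63% in the milk-low and 3.34 to 7.93% in the milk-high groups. Milk genes were then removed from counts and library sizes. Milk transcripts also occurred in barcodes under 200 genes, at 9387 ± 4325 CPM, against 26134 ± 8928 CPM in tumor-like cells.

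In milk-high cells a larger share of the UMIs outside the milk genes came from chaperones and disulfide isomerases. The chaperones summed to 5815 ± 723 CPM in milk-high and 3581 ± 725 CPM in milk-low cells, and the isomerases to 1766 ± 316 CPM and 1137 ± 230.1 CPM (n = 7). Of 35 members tested, 15 were higher and 0 lower, while of all 7535 genes 5.52% were called, 3.6% higher and 1.92% lower. Positive differences were found in 31 of 35 members, and in 3562 of all 7535 genes. An unadjusted p under 0.05 was reached by 23 members and by 1367 of all genes. The median was 0.48 over members and -0.02 over all genes. Without the mouse block edgeR called 1 member, and with the block it called 13 in the CB series alone and 4 in the WT series alone. Of all genes 0.186%, 3.33% and 1.23% were called in these fits. The higher members were 7 of 10 chaperones, all 4 disulfide isomerases and 1 each of the sensors, ERAD, translocation and signal peptidase genes.

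Hspa5 in milk-low cells was 1324, 839.7, 1026, 733, 602, 1065 and 1117 CPM in the 7 replicates in order. In milk-high cells it was 2357, 1496, 1584, 1355, 1758, 1785 and 1363 CPM. Every mouse was higher, and the groups did not overlap (0.85 ± 0.14 (SE), adjusted p = 0.000198). Manf was 242, 213, 227, 169.8, 130.4, 182 and 176 CPM in milk-low and 463, 372, 397, 313, 365, 469 and 309 CPM in milk-high cells. It too was higher in 7 of 7 mice without overlap, by 1.06 ± 0.14 (SE), adjusted p = 5.93e-06. In the middle group Manf was 282, 200.004, 326, 247, 259, 308 and 205 CPM, between the other groups in every mouse but replicate 2. Xbp1 was 712, 540.1, 360.4, 806, 732, 805 and 235 CPM in milk-low and 1285, 665, 1209, 1132, 879, 1119 and 463 CPM in milk-high cells. It was higher in all 7 mice, with overlapping groups (0.73 ± 0.15 (SE), adjusted p = 0.00183).

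**Figure D3:**
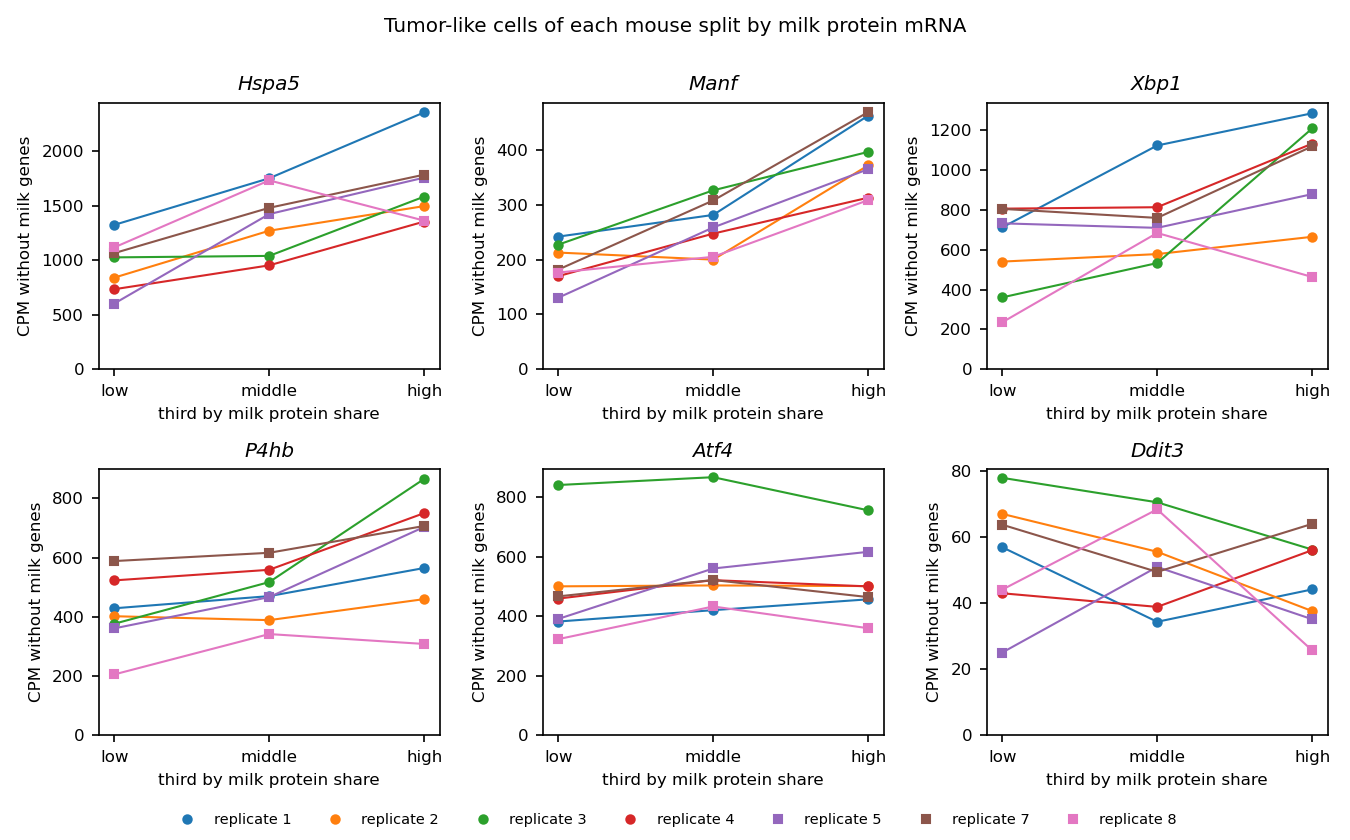
Levels in CPM without milk genes (vertical axes) of Hspa5, Manf, Xbp1, P4hb, Atf4 and Ddit3 in tumor-like cells with a low, middle or high milk protein share (horizontal axis), 1 line per mouse. Hspa5, Manf and Xbp1 end higher than they start in all 7 mice, and Ddit3 in 3 of 7.

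Sdf2l1 had a difference of 1.20 ± 0.25 (SE), adjusted p = 0.0021, from 22.04 ± 16.3 CPM to 53.8 ± 22.6 CPM. Hsp90b1 (0.87 ± 0.13), Dnajc3 (0.87 ± 0.15), Calr (0.61 ± 0.13) and Dnajb9 (0.69 ± 0.21) were the other called chaperones, of which Dnajb9 was not called with library size alone. Each of the 4 was higher in 7 of 7 mice, with adjusted p of 6.44e-05, 0.000257, 0.00368 and 0.0455. The isomerases Pdia3, Pdia4, Pdia6 and P4hb differed by 0.61 ± 0.13, 0.88 ± 0.17, 0.71 ± 0.13 and 0.61 ± 0.14. Pdia4 was higher in 6 of 7 mice and the other isomerases in 7. Herpud1, Ssr4 and Spcs1 completed the list (0.78 ± 0.18, 0.58 ± 0.13 and 0.64 ± 0.13). Some of these turned direction under another choice of cells. With milk groups set by Lalba alone the difference of Dnajb9 was -0.066 and that of Spcs1 -0.035. The difference of Dnajc3 was -0.043 with all luminal cells and -0.064 in hormone-sensing-like cells, and that of Herpud1 was -0.009 within cluster 1. Dnajb9 kept its call in 7 of 28 alternatives. Atf4 and Ddit3 did not pass. Atf4 was 522 ± 128 against 481 ± 169.9 CPM (0.17 ± 0.13 (SE), adjusted p = 0.542) and Ddit3 45.6 ± 13.7 against 53.97 ± 17.8 CPM (-0.12 ± 0.22 (SE), adjusted p = 0.835). Of 9 members with ERSE or ERSE-II, 6 were higher (median 0.71), and of 19 tested members with neither, 8 were (median 0.41). No test of this difference was made.

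**Figure D4:**
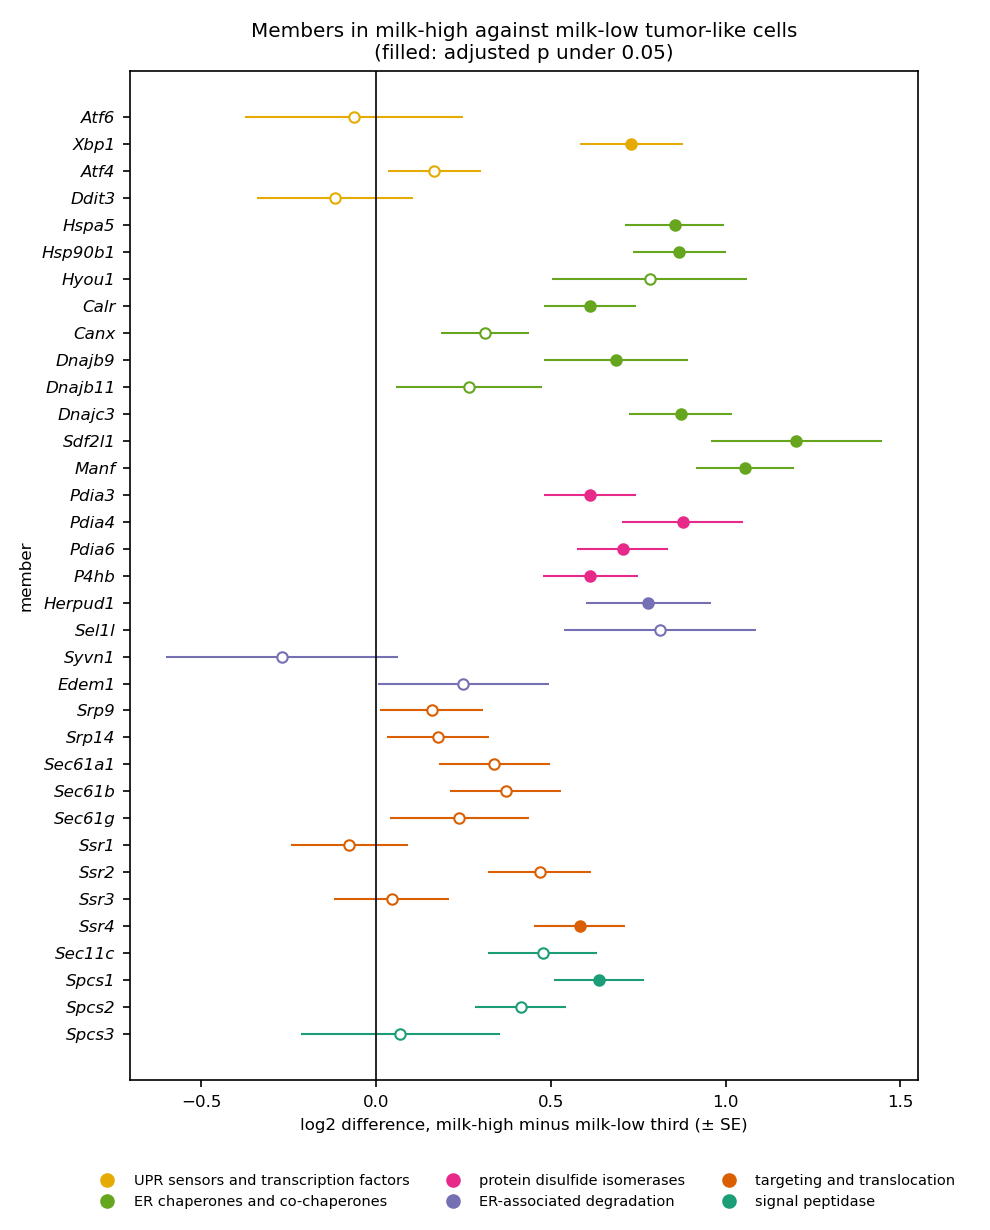
Log2 difference of milk-high from milk-low tumor-like cells (horizontal axis, ± SE) for each member tested, by role. Filled points have an adjusted p under 0.05, and all 15 of them lie above 0.

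Other measures moved with the milk share. Of 11 dissociation-response genes 7 were higher in milk-high cells, their sum being 20635 ± 9478 CPM against 13788 ± 7947 CPM and higher in 7 of 7 mice. PYMT was higher by 0.66 on the log2 scale. The largest tumor-like cluster made up 59.2 ± 12.9% of milk-high and 49.4 ± 23.4% of milk-low cells (SD, n = 7), with a lower share in milk-high cells of replicates 3 and 8. The macrophage marker list summed to 1075 CPM in milk-high and 665 CPM in milk-low cells, higher in 7 of 7 mice with Cd14 called higher, while the myoepithelial list was lower in all 7 (169.9 against 517 CPM, Krt14 and Krt17 called lower). The neutrophil list was higher in 5 of 7 (495.5 against 338.9 CPM, 0 called). The tumor marker list was higher in 7 of 7 mice (33100 against 21800 CPM), with 5 of its genes called higher and 1 lower. The fibroblast list was lower in all 7 mice (114.8 against 164.9 CPM, 0 called) and the B cell list in 6 of 7 (114.4 against 227.4 CPM, Ly6d called lower). The hormone-sensing list was lower in 6 of 7 (288.1 against 367.2 CPM, Ly6a called lower), and the plasma list in 7 of 7 (62.4 against 98.8 CPM, Sdc1 called lower). Milk-high cells of replicate 5 were deeper, with medians of 1081.5 against 493 UMIs. The part of these in the result was not tested. The share of all genes called in the same fit is given beside each of the next counts. Within the largest tumor-like cluster alone 18 of 31 members were called (4.95% of all genes), and within the second 5 of 31 (1.78%). Ranked by Csn3 alone 15 of 35 were called (5.22%), and by Lalba alone 1 of 35 (0.758%). With cells thinned to 300 UMIs 10 of 27 were called (4.7%). In hormone-sensing-like cells split the same way, edgeR called 0 of 21 members, with 2 at an unadjusted p under 0.05, and 34 of all 1849 genes (1.84%). The difference between the 2 classes was not tested.

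Another 85 genes of the same pathway were listed beside the members, 83 of them with an entry in any matrix. Up to 4 called genes with the largest change in each direction are named per comparison, each with an adjusted p under 0.05 (edgeR). In milk-high cells 16 of 75 tested were higher and 0 lower, where 3.6% of all genes were higher. Derl3, an ERAD channel component, differed by 1.30 ± 0.36 (SE), adjusted p = 0.0295, and Fkbp11, an ER prolyl isomerase, by 1.02 ± 0.19 (SE), adjusted p = 0.000961. Creld2, an ER stress-induced factor, differed by 0.73 ± 0.21 (SE), adjusted p = 0.0409. Atf3, a stress transcription factor that Atf4 can induce, was 2162 against 1516 CPM, higher in 6 of 7 mice (0.65 ± 0.15 (SE), adjusted p = 0.00884).

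Hormone-sensing-like cells were lower in 24 of 77 and higher in 5, where 16.3% of all genes were lower and 12.4% higher. Cebpb, a transcription factor of the luminal lineage and of stress, was 82.2 against 538 CPM (-2.67 ± 0.18 (SE), adjusted p = 6.95e-15). Vldlr, the stress pseudokinase Trib3 and Fkbp11 were lower as well, in the order Vldlr (-2.86 ± 0.48), Trib3 (-2.04 ± 0.45) and Fkbp11 (-1.68 ± 0.23). Stress genes also went the other way. Nupr1, a stress-induced nuclear protein, was 4780.0 against 769 CPM (2.60 ± 0.16 (SE), adjusted p = 5.82e-16). Atf3 was 3798 against 1890.0 CPM, higher in 7 of 7 mice (0.88 ± 0.15 (SE), adjusted p = 6.98e-06), against the lower Atf4 and Ddit3. The other higher genes named were Tmed3 (1.06 ± 0.16) and Tusc3 (0.57 ± 0.21).

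In fibroblast-like cells 27 of 75 were higher and 5 lower, where 19.6% of all genes were higher and 20.6% lower. The ER to Golgi export genes gave 12 higher of 20. Kdelr3, a retrieval receptor for ER proteins, was 149.5 against 3.26 CPM (5.52 ± 0.34 (SE), adjusted p = 6.25e-16), and Pdia5 was 90.4 against 5.71 CPM (4.22 ± 0.37 (SE), adjusted p = 4.79e-12). Creb3l1, an ER-bound transcription factor that acts on collagen genes, and the vesicle coat gene Sec23a were higher too, Creb3l1 (2.72 ± 0.33) and Sec23a (2.67 ± 0.39). The lower genes named were Ddit4 (-1.69 ± 0.38), Ero1l (-1.50 ± 0.38), Atf3 (-1.19 ± 0.20) and Edem2 (-0.90 ± 0.36).

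In macrophage-like cells 10 of 77 were higher and 25 lower, where 22.6% of all genes were higher and 24.3% lower. T/NK-like cells gave 2 higher and 35 lower of 72, where 22.6% of all genes were higher and 28.1% lower. B/plasma-like cells gave 2 higher and 17 lower of 78, where 6.12% of all genes were higher and 14.1% lower. In these 3 classes the listed genes were called lower more often than all genes and higher less often, by counts with no test. Ero1lb, an ER oxidase, was higher in macrophage-like and B/plasma-like cells (2.13 ± 0.32 and 3.18 ± 0.58, adjusted p = 1.03e-06 and 9.03e-07). Macrophage-like cells were also higher in Erp29 (1.70 ± 0.14), Sec24a (0.93 ± 0.36) and Ube2j1 (0.92 ± 0.20), and lower in Vldlr (-3.35 ± 0.59), Asns (-3.19 ± 0.51), Trib3 (-3.13 ± 0.64) and Fkbp11 (-2.88 ± 0.31). T/NK-like cells were higher in Ube2j1 (1.33 ± 0.22) and Txndc11 (0.75 ± 0.30), and lower in Atf3 (-2.79 ± 0.24), Mcfd2 (-2.30 ± 0.26), Fkbp11 (-2.29 ± 0.33) and Nupr1 (-2.28 ± 0.23). B/plasma-like cells were higher in Serp1 (0.90 ± 0.30), and lower in Ero1l (-3.54 ± 1.07), Nupr1 (-2.87 ± 0.40) and Atf3 (-2.75 ± 0.35). Asns, asparagine synthetase, had no UMI in B/plasma-like cells of the 4 mice and averaged 38.98 CPM in their tumor-like cells.

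Endothelial-like cells were lower in 4 of 50 and higher in 0. An unadjusted p under 0.05 was reached by 11 of these 50 and by 1111 of all 3546 genes. Myoepithelial-like cells gave 3 in each direction of 64. Of all genes 8.94% were lower and 11.4% higher in endothelial-like cells, and 8.82% lower and 9.21% higher in myoepithelial-like cells. The 4 lower in endothelial-like cells were Nupr1 (-1.93 ± 0.39), Cebpb (-1.92 ± 0.49), Surf4 (-1.80 ± 0.58) and Serp1 (-1.35 ± 0.41). Myoepithelial-like cells were higher in Vldlr (2.65 ± 0.45), Dnajc10 (1.47 ± 0.37) and Sec13 (0.98 ± 0.31), and lower in Atf3 (-1.64 ± 0.25), Sec11a (-1.46 ± 0.42) and Serp1 (-1.11 ± 0.27).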

How the data were processed

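The authors deposited whole-number counts of UMIs per gene and barcode for each tumor, without normalization. Per the methods, reads were aligned to mm10 with the PyMT sequence added. The submitters' processing notes list STAR and FastQC beside hg19 and GRCh37.p13, although all symbols used are mouse, and program versions are not given in the sources used here. The deposited counts include barcodes under 200 genes.

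Barcodes with 200 to 6000 genes were kept and mitochondrial genes dropped, which were present in 2 matrices. Cells held 71.3 to 91.1% of UMIs, and counting limits the precision of low genes. Cells were clustered in Seurat 5.3.0 (R 4.3.3) with 20 components, 30 neighbors and a resolution of 0.6, and clusters were named by marker lists. UMIs were summed per mouse and class of at least 10 cells, then tested with edgeR 4.0.16 (TMM scaling, filterByExpr with a minimum count of 5 and total of 15, quasi-likelihood test, mouse as a block, Benjamini-Hochberg threshold 0.05). The block follows from classes of 1 mouse sharing a tumor and library. Milk groups were 3 per mouse from 8 genes. The code was tested on simulated data. DESeq2 1.42.0, other scalings, filters, classes and cell limits were alternatives. Promoters and gene copies were searched with Python 3.11.15 and blastn 2.17.0.

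Members and lists were chosen with earlier results of these data known. Other pathway genes were named by size of change, at most 4 per direction and comparison among those called. Nothing in the labels says more of the samples than 1 library per mouse. With mouse as a block, p-values measure how the difference within a mouse varies over mice, together with counting error. Intervals cover counting error only.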

Additional observations from a re-analysis of the deposited data

Results flagged for a closer look

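In tumor-like cells, 1 mouse lay apart from the other 6 in 5 members, by the gap to its nearest neighbor relative to the range. All 37 members were examined, and chance alone marks about 1 in 20 groups in this way. Atf4 was highest in replicate 3, at 806 CPM, with the nearest mouse at 533 CPM. Spcs1 was highest in replicate 7, at 477 CPM, with the nearest at 346 CPM. Replicate 8, which had 135 tumor-like cells, was highest in Canx (648 CPM, nearest 464 CPM) and Dnajb11 (111 CPM, nearest 83.9 CPM). It was lowest in Syvn1, at 0 CPM, with the nearest at 20.3 CPM. Its tumor-like cells held 152745 UMIs, against 789218 to 1934108 in the other mice. The rule takes no account of counting error, which is larger with fewer UMIs.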

How the results depend on the processing

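Counts of members called were recomputed under each alternative. Percentages in parentheses are the share of all genes called in the same fit. The alternatives with library size alone, with cells ranked by Csn3, Lalba or the caseins alone, within single clusters and in hormone-sensing-like cells were chosen after seeing the data. For hormone-sensing-like cells (22 called, 28.7%) the WT series alone gave 5 (13.2%) and no mouse block 15 (19.5%). Leaving out 1 mouse gave 16 to 21 (22.4 to 27.6%). For myoepithelial-like cells (5 called, 18%) no filter gave 8 (6.22%), DESeq2 2 (14.25%) and no block 3 (13.1%). The CB series gave 3 (7%), the WT series 2 (7.4%), and leaving out 1 mouse 1 to 7 (11.9 to 18.2%). For fibroblast-like cells (17 called, 40.2%) no filter gave 5 (17.2%), the CB series 6 (26.3%) and the WT series 10 (27%). Leaving out 1 mouse gave 11 to 17 (35.67 to 38.96%). For endothelial-like cells (4 called, 20.4%) DESeq2 gave 1 (13.2%), no block 2 (15.7%) and a limit of 500 genes 2 (17.4%). The WT series gave 0 (6.98%), with 5 members at an unadjusted p under 0.05, and leaving out 1 mouse 0 to 4 (6.98 to 14.8%). For macrophage-like cells (17 called, 46.9%) the CB series gave 9 (35.04%), and leaving out 1 mouse 13 to 18 (43.35 to 46.23%). For T/NK-like cells (14 called, 50.6%) DESeq2's size factors in edgeR gave 22 (55.15%). The CB series gave 8 (33.7%), the WT series 5 (25.1%), and leaving out 1 mouse 10 to 14 (41.6 to 48.7%). For B/plasma-like cells (9 called, 20.2%) DESeq2 gave 5 (13.3%), classes by marker genes per cell 5 (11.7%) and 9 components 3 (14.15%). Leaving out 1 mouse gave 2 to 10 (10.2 to 17.6%). For milk-high cells (15 called, 5.52%) no mouse block gave 1 (0.186%), the WT series 4 (1.23%) and Lalba alone 1 (0.758%). Cluster 1 alone gave 5 (1.78%), cluster 8 alone 3 (1.99%) and hormone-sensing-like cells 0 (1.84%). Leaving out 1 mouse gave 14 to 16 (2.955 to 5.17%).

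Single members changed sign in 6 cases: Pdia4 in myoepithelial-like cells by marker classes (-0.11), and in the milk comparison Dnajc3 in all luminal cells (-0.043), Dnajb9 (-0.066) and Spcs1 (-0.035) by Lalba alone, Herpud1 in cluster 1 (-0.009) and Dnajc3 in hormone-sensing-like cells (-0.064). Of the other alternatives for single genes, 1787 kept their direction and side of the threshold and 412 lost the call. The causes were not tested. Not run, for fewer than 2 mice, were 9 components for myoepithelial-like and endothelial-like cells, the CB series for endothelial-like cells, and the WT series and the limit of 500 genes for B/plasma-like cells. Depth limits Ern1, Eif2ak3 and classes of few cells.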
